A study of Drosophila melanogaster with 2 samples.

Results

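Divergent promoters are stretches of DNA from which 2 genes are read in opposite directions, and 1782 of the 9342 summits of a sug-eGFP chromatin immunoprecipitation lay at them, a share of 19.1% (95% Wilson interval 18.3% to 19.9%). The summits came from whole embryos of mixed sex, aged 8 to 24 hours, of a transgenic Drosophila melanogaster line with GFP fused to the C-terminus of sug, and what drives the fusion is not given in the sources used here. There was 1 group with 2 biological replicates, immunoprecipitated with an antibody against GFP from fragments of 200 to 800 bp. No group without the tag was analysed here. The summits, the single bases of highest signal in a peak, were those the authors kept for their reproducibility between both replicates by IDR (irreproducible discovery rate). A summit was a member where it lay within 1 kb of annotated transcription start sites (TSSs) of protein-coding genes on both strands. The 1782 members lay at 1455 pairs of genes, each made of the nearest start on the plus strand and the nearest on the minus strand. They lay within 1 kb of 2995 of the 13968 protein-coding genes (21.4%). The remaining summits were 3774 at promoters of a single protein-coding gene, 177 at promoters of several genes on 1 strand, 321 at promoters of non-coding genes and 3288 outside promoters. Intervals cover counting error only, summits of 1 chromatin sample are not replicates, and a single group allows no test over samples.

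The gene sug (sugarbabe) encodes a zinc finger transcription factor of the GLI and GLIS type, known in larvae as a target of the sugar sensor Mondo-Mlx that acts on genes of sugar and lipid metabolism. In the compact fly genome many neighbouring genes stand head to head, with their starts close together and their transcripts pointing away from each other. Such pairs are often housekeeping genes, whose core promoters carry words such as the DRE (bound by DREF) and Motif 1 (bound by M1BP) more often than a TATA box. The insulator protein BEAF-32, which binds the word CGATA, is also known from between close head-to-head genes.

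The following 5 stretches show what lies between such starts. Each runs 5′ to 3′ on the plus strand, from the base after the TSS of the minus-strand gene to the base before the TSS of the plus-strand gene, and overlaps no annotated exon. The sequence is from the RefSeq copy of the dm6 assembly. Capitals mark copies, on either strand, of the DRE, CGATA, the Motif 7 core, the TATA box word, the GATA word and runs of 6 cytosines. The first 2 have the highest signal among the 310 members with such a stretch and starts at most 300 bp apart, and the other 3 were taken in order of signal, after the 5 highest and without repeats, as stretches that hold a Motif 7 core, a DRE and a TATA box word.
CG9467/CG8526: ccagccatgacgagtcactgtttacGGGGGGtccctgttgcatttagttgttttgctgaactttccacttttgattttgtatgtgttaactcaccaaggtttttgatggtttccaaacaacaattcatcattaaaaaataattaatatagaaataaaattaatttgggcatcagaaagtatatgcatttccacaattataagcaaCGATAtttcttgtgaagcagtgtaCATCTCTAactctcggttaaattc
Art3/mRpS10: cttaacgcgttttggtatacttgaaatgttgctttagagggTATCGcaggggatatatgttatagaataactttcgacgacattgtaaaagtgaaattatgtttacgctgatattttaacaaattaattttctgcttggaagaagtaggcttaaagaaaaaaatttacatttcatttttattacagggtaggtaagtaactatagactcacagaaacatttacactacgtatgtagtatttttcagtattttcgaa
Atat/Shc: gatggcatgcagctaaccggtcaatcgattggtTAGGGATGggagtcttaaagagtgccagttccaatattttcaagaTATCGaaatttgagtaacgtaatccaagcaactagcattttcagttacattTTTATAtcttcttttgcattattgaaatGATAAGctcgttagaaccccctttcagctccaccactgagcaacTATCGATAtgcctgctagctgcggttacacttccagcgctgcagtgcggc
Gmd/CG3792: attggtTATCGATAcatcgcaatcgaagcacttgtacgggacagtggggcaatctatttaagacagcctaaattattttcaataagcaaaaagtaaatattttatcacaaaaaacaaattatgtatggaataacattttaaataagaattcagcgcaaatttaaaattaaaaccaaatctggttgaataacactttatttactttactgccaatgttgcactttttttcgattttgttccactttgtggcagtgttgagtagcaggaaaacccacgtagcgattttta
brm/Arl1: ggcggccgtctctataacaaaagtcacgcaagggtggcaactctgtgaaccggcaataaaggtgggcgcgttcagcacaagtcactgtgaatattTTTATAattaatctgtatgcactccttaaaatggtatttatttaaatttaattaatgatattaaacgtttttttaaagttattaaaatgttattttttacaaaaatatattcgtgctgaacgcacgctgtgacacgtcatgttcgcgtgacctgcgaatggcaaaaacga

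The pair CG9467/CG8526, both uncharacterised genes, enclosed chr3R:9801027-9801279, and its summit lay 71 bp from the minus-strand start and 183 bp from the plus-strand start. Art3 (arginine methyltransferase 3) and mRpS10 (a mitochondrial ribosomal protein) enclosed chr3R:15229409-15229664, with the summit 125 and 132 bp from their starts, close to the centre. Between Atat (a tubulin acetyltransferase) and Shc (an adaptor of receptor tyrosine kinases), at chr3L:9426759-9427009, the summit lay 132 and 120 bp from the starts. In that stretch the Motif 7 core and the DRE lie toward opposite ends. Gmd (GDP-mannose dehydratase) and CG3792 enclosed chr2L:4977024-4977311, with the summit 149 and 140 bp from the starts and the DRE next to the start of Gmd. Between brm (the Brahma chromatin remodelling ATPase) and Arl1 (a Golgi GTPase), at chr3L:15982870-15983134, the summit lay 151 and 115 bp from the starts. In 4 of the 5 stretches the summit therefore stood near the middle, and in the other it stood nearer the minus-strand gene.

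The label fitted nearly all members: 1744 of 1782 (97.9%, 97.1% to 98.4%) had starts that stood head to head, and in the other 38 the nearest plus-strand start lay before the minus-strand start, so that the transcripts overlapped. Exactly 2 genes had a start within 1 kb at 1650 members, and 3 or more at 132. The most was 10 genes, at the mod(mdg4) locus, whose many pre-mod(mdg4) transcripts are annotated as genes of their own and are joined to the common transcript by trans-splicing. Its summit lay 35 bp inside pre-mod(mdg4)-E, with a signal of 2574 in the IDR set. Several members lay at 309 of the 1455 pairs, and at most 3 at 1 pair. At head-to-head pairs with several summits, the outermost summits stood a median of 210 bp apart, and at 177 of these pairs (59.2%) the summits were nearest to opposite starts.

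Members lay mostly in the stretch that both genes share. Of the 1782 members, 1228 (68.9%, 66.7% to 71.0%) lay between head-to-head starts, 276 inside the plus-strand gene and 240 inside the minus-strand gene. The head-to-head starts were a median of 331 bp apart (quartiles 225 and 519 bp). The nearer start was a median of 89 bp away and the farther one 287 bp, while single-gene promoter summits were a median of 185 bp from their start. The rule itself favours a small value for members, since a member has at least 2 starts to be near and a single-gene summit is set against the starts of 1 gene.

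The place of the summit changed with the width of the shared stretch, given here in bins of separation that exclude their upper bound, except that of 500 to 1000 bp. The rule itself favours a larger share between the starts at wider separations. A wider stretch takes up more of the positions that lie within 1 kb of both starts. The shares between the starts were not set against that. With starts under 100 bp apart, 61 of 193 members (31.6%, 25.5% to 38.5%) lay between them, and with starts 100 to 200 bp apart 97 of 183 (53.0%, 45.8% to 60.1%). With starts 200 to 300 bp apart, 301 of 382 (78.8%, 74.4% to 82.6%) lay between, and 232 of these 301 (77.1%, 72.0% to 81.5%) were in the central 50% of the stretch. With starts 500 to 1000 bp apart, 295 of 403 (73.2%, 68.7% to 77.3%) lay between, but only 94 of these 295 (31.9%, 26.8% to 37.4%) were in the central 50%. Summits in that bin thus mostly sat nearer 1 start than the centre. Another 68 members had starts more than 1000 bp apart, where the 1 kb window itself holds a member between the starts, and 33 of the 68 (48.5%, 37.1% to 60.2%) were in the central 50%. Among members between the starts, the nearer start was a median of 90 bp away at 200 to 300 bp of separation, 106 bp at 300 to 500 bp and 112 bp at 500 to 1000 bp. It was 261.5 bp (quartiles 149 and 449 bp) at more than 1000 bp, where the 1 kb window excludes summits close to 1 start of the widest pairs. Between the starts, 666 summits were nearer the plus-strand start and 561 nearer the minus-strand start.

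**Figure D1:**
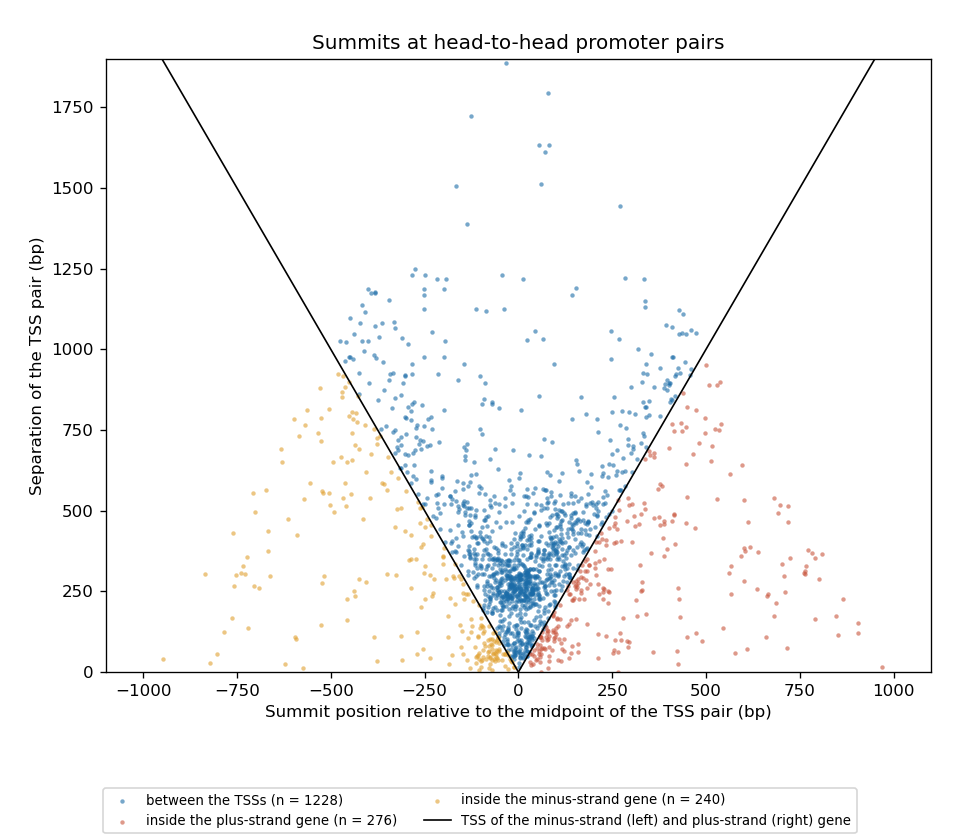
Position of the 1744 members at head-to-head pairs, with the distance of the summit from the midpoint of the TSS pair on the x axis and the separation of the starts on the y axis, both in bp. Each point is a summit and the lines mark both starts. Points gather in the centre at separations of 200 to 300 bp, and follow either line at 500 to 1000 bp.

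Members were kept for reproducibility between both replicates, so finding them in both replicate lists follows in part from that choice. A summit within 100 bp was found in both replicate lists for 1576 of 1782 members (88.4%, 86.9% to 89.8%), against 89.8% of single-gene promoter summits, and for 94 in replicate 1 only, 104 in replicate 2 only and 8 in neither. Where both had one, the replicate summits stood a median of 26 bp apart (quartiles 11 and 53 bp). Only replicate summits within 100 bp of the member were read, which bounds this distance. At head-to-head pairs, 1376 of 1545 (89.1%) were in the same place (between, or inside the same gene) in both replicates and only 6 were in opposite genes. The nearer start was the same in both replicates for 335 of 340 members (98.5%) with starts 500 to 1000 bp apart, but for 249 of 336 (74.1%) with starts 200 to 300 bp apart, where the summit is close to the centre. The replicates did differ in the share between the starts. Taking the 9342 highest summits of either replicate list, 1763 were members by the same rule in replicate 1 and 1830 in replicate 2, and 62.1% (59.8% to 64.3%) of the first but 74.97% (72.9% to 76.9%) of the second lay between the starts.

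The highest member was CG12093/Atg2, on 3L, with a signal of 20013 in the IDR set, where it ranked 2. Signal scores are comparable within 1 list only, so ranks are given beside them. Atg2 transfers lipids to the growing autophagosome. Its summit had 7931 in the list of replicate 1 (rank 6) and 12137 in that of replicate 2 (rank 1), and it lay between the starts, 67 bp from that of Atg2. Aldh7A1/CG14085, with an aldehyde dehydrogenase of lysine breakdown, followed at 13673, with 8401 in replicate 1 and 5353 in replicate 2, and its summit lay 83 bp inside Aldh7A1. Both lay within the 11 highest rows of each replicate list. CG9467/CG8526 had 12384, with 4075 (rank 29) in replicate 1 and 8328 (rank 5) in replicate 2. The pair slmb/CG5793 had 11213, with 7317 (rank 10) in replicate 1 and 4004 (rank 22) in replicate 2, and its summit was inside CG5793. The gene slmb encodes an F-box protein that acts in the Hedgehog and Wingless pathways. Below these 4, the other 11 of the 15 highest ranged from 8239 at SMSr/smid to 4418 at CG13390/CG17294.

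A second autophagy gene stood among them. ERR/Atg18a had 6201 (3715 in replicate 1, 2531 in replicate 2), with starts 1187 bp apart and the summit 341 bp from the start of ERR, a nuclear receptor that switches on glycolytic genes in the embryo. Mitochondrial ribosomal proteins stood at 2 of the 15, mRpL41/CG8079 with 7973 (2544 and 5446 in replicates 1 and 2) and Art3/mRpS10 with 6237 (2300 and 3964). The remaining pairs were SMSr/smid, dsd/Tusp, Cyt-b5-r/CG17928, Fkbp14/CG46395, Pdrg1/Pal1, CG6310/Mocs1, Ugalt/eIF2Bbeta and CG13390/CG17294. Of the 15 IDR summits, 10 lay between the starts and 5 inside a gene, and all 15 had a summit in both replicate lists. That of SMSr/smid was only 3 bp inside smid, and its summits in both replicate lists lay between the starts.

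Closely packed starts were also found among the members above percentile 90 of signal. The shortest separation there was 8 bp, at SerRS/CG17260 (seryl-tRNA synthetase), with a signal of 1407 (564 in replicate 1 and 833 in replicate 2). Starts 16 bp apart belonged to E(z), the methyltransferase of Polycomb repressive complex 2, and Cnep1r2, with 2199 (800 and 1411 in replicates 1 and 2). The longest was nenya/mino, with starts 1445 bp apart and a signal of 1597 (920 and 670 in replicates 1 and 2).

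Over all members the median signal was 471, against 427 at single-gene promoter summits and 403 outside promoters. As a percentile of the IDR set, members stood at 56.4 (54.0 to 58.4), single-gene promoter summits at 50.4 (49.0 to 51.9) and summits outside promoters at 46.8 (45.3 to 48.7). The replicates differed here. In replicate 2 alone members stood at 61.2 (58.9 to 63.5) and single-gene promoter summits at 50.03 (48.5 to 51.6), whereas in replicate 1 alone members stood at 51.2 (49.6 to 53.1) and single-gene promoter summits at 50.9 (49.4 to 52.6). A difference over all members was therefore not detectable in replicate 1. Across the 1576 members found in both replicates, the Spearman rho of the replicate signals was 0.70, as a description of summits that share their loci.

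**Figure D2:**
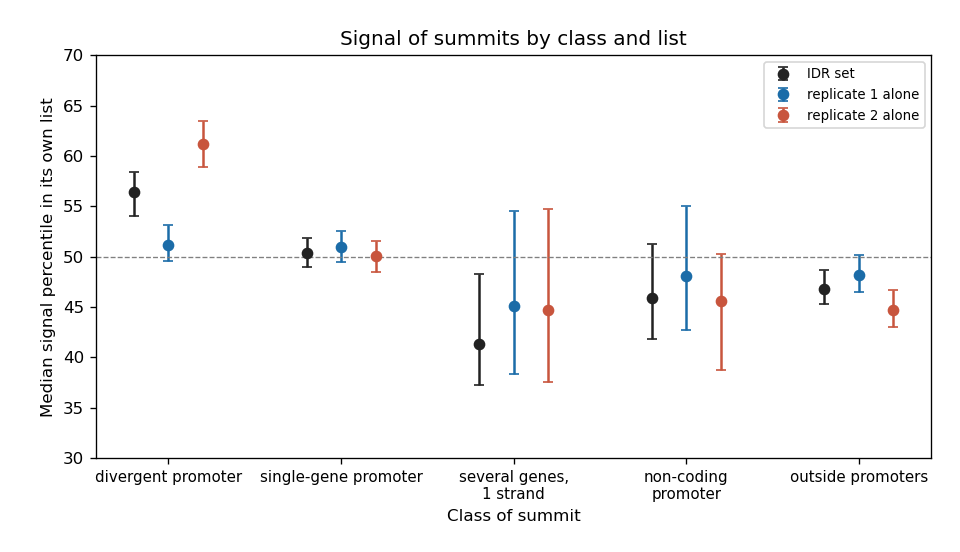
Median signal percentile within its own list (y axis) of 5 classes of summits (x axis), in the IDR set, replicate 1 alone and replicate 2 alone, with 95% order-statistic intervals as bars. Divergent promoter summits stand at 56.4 in the IDR set and 61.2 in replicate 2 alone, but at 51.2 in replicate 1 alone.

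Signal differed with separation, and at 200 to 300 bp both replicates exceeded the single-gene level. Members with starts 200 to 300 bp apart stood at percentile 71.4 (67.7 to 74.4) in the IDR set, 60.6 (54.3 to 64.6) in replicate 1 alone and 75.9 (73.5 to 79.3) in replicate 2 alone. Members with starts under 100 bp apart stood at 49.8 (44.1 to 55.1), 43.7 (37.0 to 50.96) and 57.0 (46.8 to 63.6) in the same 3 lists. Members with starts 500 to 1000 bp apart stood at 45.5 (40.1 to 51.4), 46.1 (41.9 to 52.2) and 49.0 (44.2 to 52.9). In all 3 lists the interval at 200 to 300 bp lay above those of both these bins. At 300 to 500 bp members stood at 56.8 (53.3 to 61.5), 52.8 (50.3 to 56.3) and 63.8 (59.1 to 67.7), and the replicate 1 interval overlapped that of single-gene promoter summits. The 68 members at more than 1000 bp stood at 60.9 (49.9 to 71.6) in the IDR set, a wide interval that overlaps that at 200 to 300 bp. The distance from a start moved with signal as well. At more than 100 and up to 200 bp from the nearest start, members stood at 69.2 (65.2 to 71.9) and single-gene promoter summits at 58.5 (55.0 to 62.0), and at more than 50 and up to 100 bp at 60.3 (54.9 to 64.2) and 42.5 (40.1 to 47.8). At more than 200 and up to 500 bp they stood at 57.0 (49.98 to 67.7) and 57.2 (53.1 to 61.7), and at 0 to 50 bp at 44.4 (41.3 to 48.0) and 40.2 (37.4 to 43.9). The intervals were therefore apart at more than 50 and up to 200 bp, and overlapped both nearer the start and farther away. The 93 members whose farther start lay in the last 100 bp of the 1 kb window had a median signal of 373, and the 84 summits up to 100 bp past it had 453.

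Read from the annotation, 2592 neighbouring head-to-head pairs had starts at most 1 kb apart, and an IDR summit lay between the starts or within 100 bp of them at 1272 (49.1%, 47.2% to 51%). In the IDR set the share was highest at middle separations. A summit was found at 321 of 542 pairs 200 to 300 bp apart (59.2%, 55.0% to 63.3%) and at 366 of 649 pairs 300 to 500 bp apart (56.4%, 52.6% to 60.2%). It was found at 172 of 426 pairs under 100 bp apart (40.4%, 35.8% to 45.1%) and at 261 of 625 pairs 500 to 1000 bp apart (41.8%, 38.0% to 45.7%), although the stretch searched grows with the separation. Replicate 1 alone gave 54.1% at 200 to 300 bp and 37.1% at 500 to 1000 bp, and replicate 2 alone 62.5% and 48.8%, so the order of these bins was the same in both. Of the 1320 pairs without an IDR summit, 374 (28.3%) had one in the longer list of pooled replicates. In that list the share was 68.5% (64.4% to 72.2%) at 200 to 300 bp and 70.9% (67.3% to 74.2%) at 300 to 500 bp. It was 64.5% (60.7% to 68.1%) at 500 to 1000 bp, an interval that overlaps both, and 53.3% (48.5% to 58.0%) under 100 bp. By chromosome arm, between 44.3% (2L) and 52.9% (3R) of pairs had an IDR summit.

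**Figure D3:**
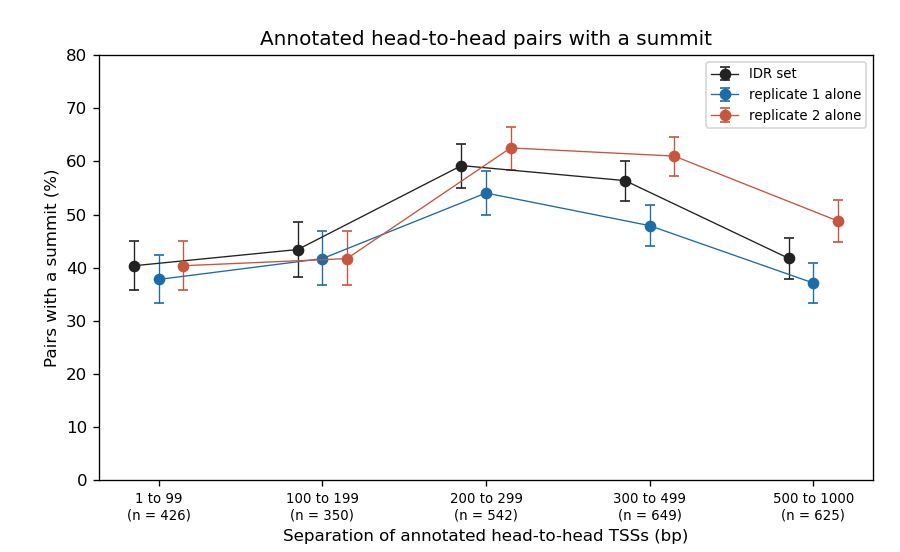
Share of annotated head-to-head pairs with a summit between their starts or within 100 bp (y axis, %) by separation of the starts in bp (x axis), in the IDR set, replicate 1 alone and replicate 2 alone, with 95% Wilson intervals as bars. In each list the share is highest at 200 to 300 bp, at 59.2% in the IDR set.

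Genes of head-to-head pairs had summits more often than other genes. An IDR summit lay within 100 bp of a start at 1245 of 4993 genes of such pairs (24.9%, 23.8% to 26.2%), against 1199 of the 8975 other protein-coding genes (13.4%, 12.7% to 14.1%). Replicate 1 alone gave 24.0% and 12.9%, and replicate 2 alone 25.4% and 12.9%. A summit between close starts can count for both genes of a pair.

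The sequence words within 100 bp of the summit differed between members and single-gene promoter summits. A total of 21 words were searched on both strands, each spelled here where it is described. Of these, 5 were in a larger share of members, 5 in a smaller share and 11 had overlapping intervals. The DRE, TATCGATA, lay at 180 members (10.1%, 8.79% to 11.6%) and at 3.84% (3.27% to 4.50%) of single-gene promoter summits, with 3.76% over all IDR summits and 6.44% of windows of the same length at all protein-coding starts. The Motif 7 core, CATCNCTA, a promoter word whose binder is not known, lay at 7.86% (6.70% to 9.20%) of members and 2.94% (2.45% to 3.53%) of single-gene summits, with 3.14% over all IDR summits and 4.46% at all starts. Motif 1, GGTCACAC, lay at 6.62% (5.56% to 7.87%) of members and 3.63% (3.08% to 4.28%) of single-gene summits, with 2.89% over all and 5.68% at all starts. The 3 words mark promoters of housekeeping genes, and 403 members (22.6%, 20.7% to 24.6%) held at least 1 of them, against 359 single-gene promoter summits (9.51%, 8.62% to 10.5%).

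CGATA, which the DRE contains, lay at 854 members (47.9%, 45.6% to 50.2%) and 38.2% (36.7% to 39.8%) of single-gene summits, with 38.3% over all IDR summits and 37.1% at all starts. The TATA box word, TATAAA, lay at 620 members (34.8%, 32.6% to 37.0%) and 24.9% (23.5% to 26.3%) of single-gene summits, with 26.7% over all and 26.9% at all starts. The windows of members held 37.7 ± 8.41% G and C (SD, n = 1782) and those of single-gene summits 42.2 ± 8.46% (SD, n = 3774). The part of this composition in the share of the AT-only TATA box word was not tested.

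Words in a smaller share of members included GATA and GAGA, which are known from developmentally regulated genes. GATA, written GATAAG and bound by GATA factors, lay at 17.3% (15.6% to 19.1%) of members and 25.7% (24.4% to 27.1%) of single-gene summits, with 25.8% over all IDR summits and 12.3% at all starts. The run CCCCCC, which GLIS-type and Klf-type factors bind, lay at 72 members (4.04%, 3.22% to 5.06%) and 7.95% (7.13% to 8.86%) of single-gene summits, with 9.07% over all and 1.85% at all starts. GAGA, written GAGAGAG and bound by Trl, lay at 2.58% (1.94% to 3.43%) of members and 6.57% (5.82% to 7.41%) of single-gene summits, with 5.06% over all and 4.68% at all starts. The GC box, CCGCCC, lay at 3.98% (3.17% to 4.996%) and 7.21% (6.42% to 8.08%), with 7.02% over all and 4.68% at all starts. The initiator, TCAGT, lay at 31.4% (29.3% to 33.6%) of members and 37.1% (35.6% to 38.7%) of single-gene summits, with 34.6% over all and 43.4% at all starts.

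**Figure D4:**
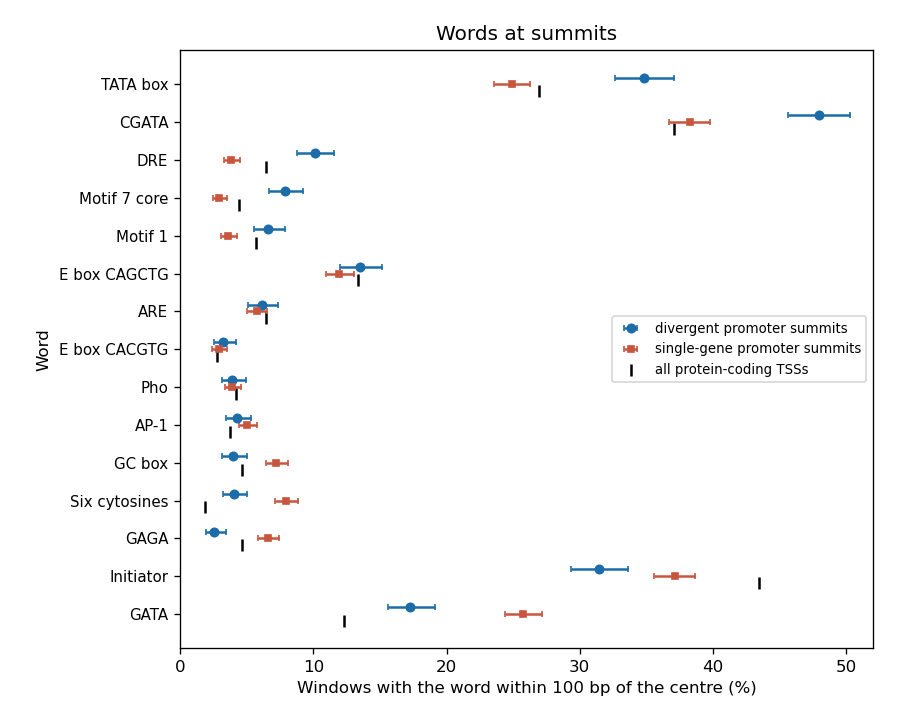
Share of windows that hold each word within 100 bp of their centre (x axis, %), for words (y axis) with a share over 1% in either class, at divergent promoter summits, single-gene promoter summits (both with 95% Wilson intervals) and all protein-coding TSSs. The DRE lies at 10.1% of divergent promoter summits and 3.84% of single-gene promoter summits, and GATA at 17.3% and 25.7%.

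Members are closer to a start than single-gene summits, so the words were also read at equal distances from the nearest start. The windows are still unlike, since a member has a second start, at a median of 287 bp, and its window can reach that promoter too. The part of the second start in the shares below was not tested. At 0 to 50 bp from the nearest start, at least 1 of the DRE, Motif 1 and Motif 7 core lay at 34.7% (30.8% to 38.8%) of members and 24.4% (21.4% to 27.8%) of single-gene summits, and at more than 100 and up to 200 bp at 15% (12.2% to 18.3%) and 6.89% (5.26% to 8.97%). At more than 500 bp the shares were 3.23% (0.889% to 11.02%) and 1.04% (0.550% to 1.97%). For this group the intervals were thus apart in these 2 nearer bins and overlapped at the far end. The 3 words did not contribute alike. Motif 1 lay at 11.2% of members and 10.8% of single-gene summits at 0 to 50 bp, and the DRE at 16.7% and 10.5%. Within 100 bp of a start, members exceeded single-gene summits by 4.8 points for the DRE and 4.8 for the Motif 7 core. For Motif 1 the excess there was 0.545 points, against 2.99 over all distances. Intervals at equal distance are not given for single words. At least 1 of GATA, the run of 6 cytosines and GAGA lay at 18.1% (15.01% to 21.6%) of members and 36.4% (32.9% to 39.9%) of single-gene summits at more than 100 and up to 200 bp, but at 37.5% (31.1% to 44.4%) and 39.1% (36.0% to 42.2%) at more than 200 and up to 500 bp. At 0 to 50 bp the shares were 19.4% (16.3% to 23.0%) and 25% (21.9% to 28.4%), and at more than 50 and up to 100 bp 19.8% (16.4% to 23.7%) and 30.9% (27.2% to 34.8%). The intervals were therefore apart, with a smaller share in members, at more than 50 and up to 200 bp from a start. They overlapped in the bins on either side, which does not show equal shares, and at 0 to 50 bp the share in members was also the smaller.

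Within the windows of members, the words stood at different places. Where a member held a DRE, its nearest copy was a median of 52 bp from the summit and 32.5 bp from the nearer start of the pair, and Motif 1 was 54.5 bp from the summit and 22 bp from the start. The Motif 7 core was 61 bp from the summit and 24 bp from the start. These 3 words stood nearer the start than the summit in 63.3%, 65.3% and 62.1% of the members that held them. Runs of 6 cytosines stood a median of 26 bp from the summit and 196.5 bp from the nearer start, and were nearer the start in 8 of 72 members (11.1%, 5.74% to 20.4%). The TATA box word was a median of 41.5 bp from the summit and 110 bp from the start. Words were read only within 100 bp of a summit, which bounds their distance from the summit but not from a start. In members within 100 bp of a start, the DRE was nearer the start than the summit in 67.2%, Motif 1 in 71.9%, the Motif 7 core in 68.9%, the TATA box word in 26.9% and the run of 6 cytosines in 8 of 24 (33.3%, 17.97% to 53.3%).

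Pairs with a summit and pairs without one had overlapping intervals for most words. In windows centred on the midpoint of the starts, the DRE lay at 111 of 1272 pairs with an IDR summit (8.73%, 7.30% to 10.4%) and at 116 of 1320 pairs without one (8.79%, 7.38% to 10.4%). The midpoint lies farther from both starts as the separation grows, while the DRE in members stood a median of 32.5 bp from the nearer start. Words near the starts of wide pairs can therefore be missed, and the shares describe the midpoint only. At least 1 of the DRE, Motif 1 and Motif 7 core lay at 17.5% (15.5% to 19.7%) of pairs with a summit and 17.4% (15.5% to 19.6%) of pairs without, and GATA at 14.5% (12.6% to 16.5%) and 13.3% (11.6% to 15.3%). For the group of 3 words the direction differed between separations. Its shares with and without a summit were 39.0% and 46.9% under 100 bp, and 34.2% and 26.3% at 100 to 200 bp. They were 20.6% and 12.2% at 200 to 300 bp, 7.38% and 6.36% at 300 to 500 bp, and 4.21% and 3.85% at 500 to 1000 bp. Over all separations, of the 21 words only the initiator (27.6%, 25.2% to 30.1%, and 34.4%, 31.9% to 37.0%) and GAGA (1.49%, 0.958% to 2.32%, and 3.26%, 2.43% to 4.36%) had intervals that did not overlap, both lower at pairs with a summit. Read by separation, 5 of the 105 combinations of 21 words and 5 bins had intervals apart, and the TATA box word stood on both sides. It lay at 19.1% (13.6% to 26.1%) of pairs with a summit and 39.9% (33.3% to 46.8%) of pairs without one at 100 to 200 bp, but at 56.0% (50.9% to 61.0%) and 43.1% (37.5% to 48.9%) at 300 to 500 bp. Motif 1 lay at 10.5% (6.72% to 15.9%) and 21.7% (17.03% to 27.1%) under 100 bp. The other 2 were the initiator at 300 to 500 bp and GAGA at 100 to 200 bp, both lower at pairs with a summit. The windows held 32.6 ± 8.14% G and C at pairs with a summit and 35.0 ± 8.00% at pairs without one (SD, n = 1272 and 1320).

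The share of genes with a member differed widely between gene lists. The lists below were chosen with earlier results of these data known, and 28 were read. Of the 15 peroxins, which build peroxisomes, 10 had a member within 1 kb (66.7%, 41.7% to 84.8%), as had 20 of 32 spliceosome and snRNP genes (62.5%, 45.3% to 77.1%) and 42 of 75 mitochondrial ribosomal protein genes (56.0%, 44.7% to 66.7%), all against 21.4% of all protein-coding genes. Of the 92 cytoplasmic ribosomal protein genes 50 had one (54.3%, 44.2% to 64.1%), and of the 111 genes of vesicle trafficking also 50 (45.05%, 36.1% to 54.3%). In all, the interval of 14 lists lay above 21.4%, that of 6 below it, and 8 held it, among them translation factors (17 of 60, 28.3%), replication and cell cycle (15 of 53, 28.3%) and mitochondrial import (6 of 16, 37.5%). At the low end were 11 of 120 cytochrome P450 and glutathione transferase genes (9.17%), 4 of 117 histone genes (3.42%), 5 of 180 odorant and gustatory receptors (2.78%), 3 of 121 cuticle protein genes (2.48%) and 1 of 51 odorant binding proteins (1.96%). None of 26 Hox and segmentation genes had one, an interval of up to 12.9%.

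The lists also differed in how many of their genes stand in annotated head-to-head pairs. Of all protein-coding genes 35.7% do, but 28 of 32 spliceosome genes (87.5%), 12 of 15 peroxins (80%), 12 of 121 cuticle protein genes (9.92%) and none of the 26 Hox and segmentation genes. Among genes that stand in such pairs, 2467 of 4993 (49.4%) had an IDR summit at their pair. Read against that share, 4 lists lay above it: 42 of 55 cytoplasmic ribosomal protein genes (76.4%, 63.7% to 85.6%), 48 of 68 vesicle trafficking genes (70.6%, 58.9% to 80.1%), 40 of 59 mitochondrial ribosomal protein genes (67.8%, 55.1% to 78.3%) and 10 of 12 peroxins (83.3%, 55.2% to 95.3%). Another 19 lists held it, among them the spliceosome (19 of 28), the proteasome (14 of 26) and the nuclear pore (10 of 19). The 4 lists below it were histones (3 of 89, 3.37%), odorant and gustatory receptors (2 of 26), odorant binding proteins (1 of 11) and cuticle proteins (1 of 12). Replication-dependent histone genes are near-identical copies in a tandem array, and how reads with several matches were treated is not given in the sources used here.

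**Figure D5:**
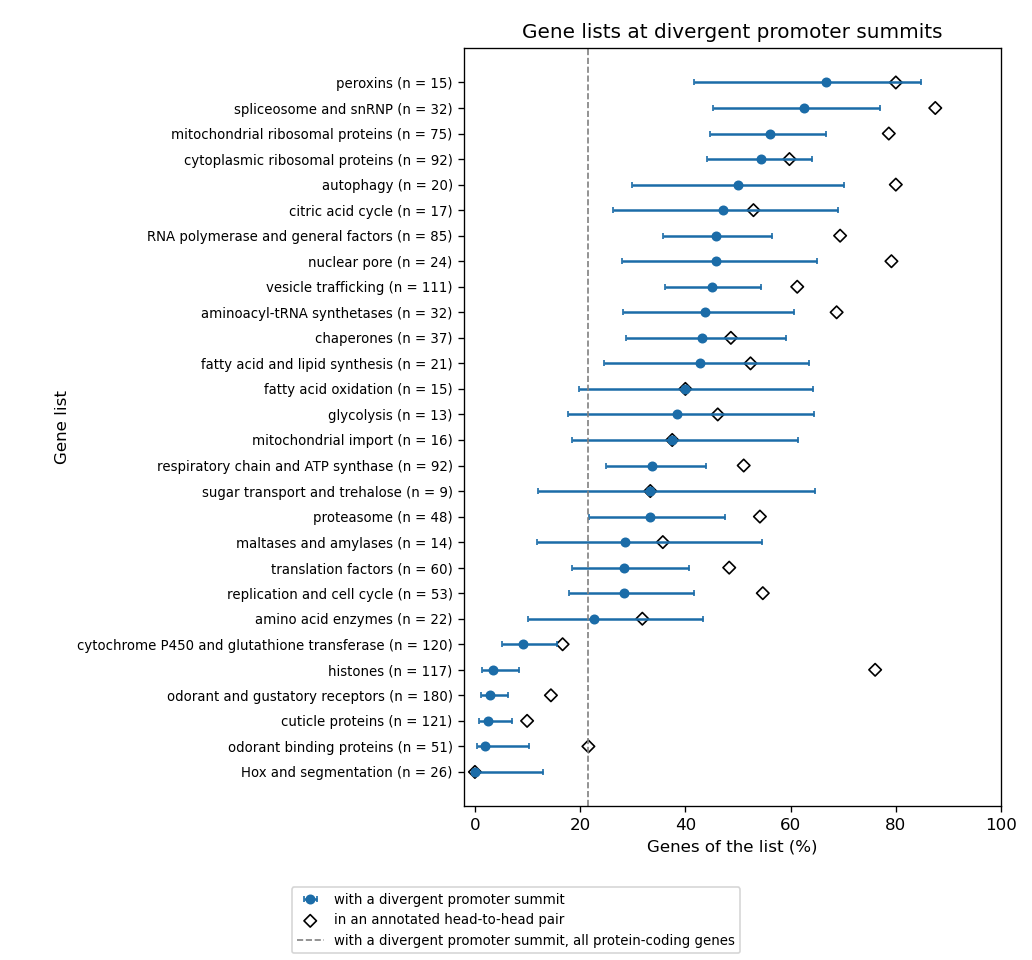
Share of the genes of 28 lists (y axis) that have a divergent promoter summit within 1 kb (x axis, %; circles, with 95% Wilson intervals), with the share that stand in an annotated head-to-head pair (diamonds) and the share of all protein-coding genes with such a summit (dashed line, 21.4%). Of 117 histone genes 89 stand in pairs, but 4 have such a summit.

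Named pairs show what the summits lie between. Among cytoplasmic ribosomal proteins, RpS27 shared its promoter with Nup37, a nucleoporin, with starts 144 bp apart, a signal of 2385 (908 in replicate 1 and 1469 in replicate 2) and the summit 7 bp inside RpS27. RpL32/CG7943 had 1913 (722 and 1186 in replicates 1 and 2), 110 bp from the start of RpL32. Taf5/Pex6 joined a subunit of TFIID and a peroxin, with 1418 (629 in replicate 1 and 793 in replicate 2). ND-ASHI/Fum1 joined a subunit of respiratory complex I and fumarase of the citric acid cycle, with 1229 (646 in replicate 1 and 599 in replicate 2). Listed genes stood on both sides at 28 of the 1455 pairs and on at least 1 side at 379. Of the 2995 member genes, 410 (13.7%) were in any list. The same counts over all annotated head-to-head pairs are not given here, so these numbers are a description only.

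Metabolic enzymes were among them as well. Eno/Rrp40 (enolase, and a subunit of the RNA exosome) had 4035 (2215 in replicate 1 and 1822 in replicate 2), 213 bp from the start of Eno. CG4743/Idh3g, with a subunit of isocitrate dehydrogenase, had 2247 (963 and 1306 in replicates 1 and 2). CG10527/Treh, with trehalase, which splits the blood sugar of insects, had 1543 (850 and 741 in replicates 1 and 2), between starts 1229 bp apart. The lipase bmm (brummer), which releases fat from lipid droplets, shared its promoter with Tdrd3, with 1223 (524 and 725 in replicates 1 and 2). These summits lay above percentile 90 of the IDR set and were found in both replicates, but each is the highest of its gene list. In the same lists Pgk/Bacc had 744 (343 and 385 in replicates 1 and 2) and CG11882/Pglym78 650 (336 and 319). The starts of Pgk/Bacc did not stand head to head. Psf2/Tps1 had 240, with no summit within 100 bp in either replicate list. The intervals of the glycolysis (5 of 13) and sugar transport (3 of 9) lists held 21.4%. Those of the citric acid cycle (8 of 17) and of fatty acid and lipid synthesis (9 of 21) lay above it. The second list also holds the lipase bmm, so it is not of synthesis alone. Among their genes in annotated head-to-head pairs, 6 of 9 (35.4% to 87.9%) and 7 of 11 (35.4% to 84.8%) had an IDR summit at their pair. Both these intervals held the 49.4% of all paired genes.

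Both genes of a pair belonged to the same list at 9 of the 1455 pairs. The same share over all annotated head-to-head pairs is not given here, so this number is a description only. Mal-A3/Mal-A4, enzymes that split maltose, had 2402 (1375 in replicate 1 and 1073 in replicate 2), whereas the neighbouring Mal-A1/Mal-A2, with starts 1723 bp apart, had 343 (146 and 214 in replicates 1 and 2). The cytochrome P450 genes Cyp4d14/Cyp4d2 had 1298 (830 and 475 in replicates 1 and 2) and Cyp6a9/Cyp6a20 had 327 (174 and 156 in replicates 1 and 2). The others were Taf10b/Taf10 (332), Cog3/Sec5 (826), Exo84/Vps2 (584), Pex16/Pex14 (442) and GstE10/GstE1 (325). The starts of GstE10/GstE1 did not stand head to head. This small set thus held pairs of duplicated genes (maltases, P450s, glutathione transferases and both Taf10 copies). The other pairs were of genes that share the vesicle trafficking or the peroxin list.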

How the data were processed

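Chromatin immunoprecipitation followed by sequencing was done on 2 biological replicates, and 4 peak lists on dm6 were used: the IDR set, each replicate list and the list of pooled replicates. Per the text files deposited with them, replicate lists were called on an alignment and a control, which was not analysed here. Neither aligner nor peak caller is given in the sources used here. For each summit the authors deposited a signal score, comparable only inside that list, and a −log10 q, which was not used. The deposited summit offset was added to the interval start to give the summit. Each replicate list and the pooled list hold 30000 rows. In replicate 1, 21 mitochondrial rows were left out. No depth is given, so the depth is unknown.

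Starts came from the Ensembl annotation (release 115) and sequence from RefSeq. Members and gene lists were chosen with earlier results of these data known. Named are the 15 highest members, up to 3 genes per list, pairs within 1 list and the 5 shortest and 5 longest separations above percentile 90 of signal, of which some are printed. Shares have 95% Wilson intervals and medians order-statistic intervals; no test was run. Signal by separation, words by distance and position, word groups and words at pairs were chosen after seeing the data. Words share letters where one contains the other (CGATA in the DRE). The classification and word search were tested on simulated data. Python 3.11.15, numpy 2.4.6, pandas 2.3.3, scipy 1.17.1 and matplotlib 3.10.9 were used.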

Additional observations from a re-analysis of the deposited data

How the results depend on the processing

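The share of IDR summits at divergent promoters was 14.1% with a window of 500 bp, 28.1% with 2 kb, 21.4% in the 4671 IDR summits of higher signal and 17.9% with the first start of each gene only. The share between head-to-head starts was 75.3%, 62.0%, 74.6% and 60.6% under the same 4 settings, and 62.1% to 75% without 1 replicate. The head-to-head share was 96.1% with 2 kb, 98.5% in the higher-signal summits and 94.2% with first starts. The share found in both replicates was 71.0% within 50 bp, 94.7% within 200 bp, 93.7% in the higher-signal summits and 69.2% among the 9342 highest rows of each replicate list. The median signal percentile of members was 58.6 with 500 bp, 53.2 in the higher-signal summits, 51.2 to 61.2 without 1 replicate and 51.3 within 100 bp of a start, where that of single-gene promoter summits was 41.3 (a setting chosen after seeing the data). The share of members with the DRE was 8.01% with a 2 kb window, 8.74% to 10.3% without 1 replicate, 4.38% and 16.5% with word windows of 50 and 200 bp, and 13.7% within 100 bp of a start. For GATA it was 14.7% with 500 bp, 20.5% with 2 kb, and 9.03% and 27.9% with word windows of 50 and 200 bp. The share of annotated pairs with a summit was 30.3% in the higher-signal summits and 44.1% to 52.4% without 1 replicate. The cause of these shifts was not tested, apart from those that follow from a wider or narrower window or a smaller set. None of the 10 words whose intervals did not overlap changed direction in 100 combinations of word and setting. Depth is unknown, each replicate list and the pooled list hold exactly 30000 rows, and 1 group of 2 replicates gives no test over samples. No paired analysis was possible because there is 1 group.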
